A study of Mus musculus with 8 samples.

Results

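Genes of the primary cilium and the centrosome were followed in HM-1 tumours of mice treated with anti-VEGF antibody and in control tumours. The 42 genes were chosen by symbol. They are the genes on the array named Ift, Bbs, Cep, Haus, Tubg, B9d or Dync2 and the like, together with *Ofd1*, *Cc2d2a*, *Ttc8*, *Pcnt* and *Alms1-ps2*. They are 42 of the 11667 genes that the deposited table measured with a probe set of 1 gene symbol, and each was measured by 1 probe set. The RefSeq gene table held 112 symbols of the same pattern, so the counts here describe the measured genes and not the whole family. The tumours grew from HM-1, an ovarian cancer cell line of the mouse, placed under the skin of the right flank of B6C3F1 mice, and tumours were taken at a long diameter of 1.5 cm. The 4 control tumours came from mice given rat IgG isotype control, and the 4 anti-VEGF tumours from mice given anti-VEGF antibody, both into the peritoneal cavity in repeated doses from day 3 by the sample labels. The study's methods give a later start. Whole tumours of 1 cell line at 1 site were measured, so host cells are part of each value. The labels do not say whether each tumour came from a mouse of its own, and the p-values measure only the spread between these tumours.

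The primary cilium is a single antenna that a resting cell builds on the older of its paired centrioles, and it carries receptors such as those of the Hedgehog pathway. Intraflagellar transport trains, pulled outwards by kinesin-2 and back by dynein-2, move building material along it, the BBSome loads membrane proteins onto the trains, and a transition zone at the base guards the entrance. Before division the cell takes the cilium down, and the same centrioles, with pericentriolar material, the gamma-tubulin ring and augmin, organise the microtubules of the spindle.

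Promoters were looked at first, because RFX factors, the best-known activators of cilium genes, bind an X-box whose better conserved arm reads GTTGCC. RefSeq (build GRCm38.p6) gave the 250 bases before each listed start for 36 of the 42 genes. GTTGCC was found on either strand in 4 of the 36 (11.1%), beside 11.8% of the 27025 genes with a promoter in the same table. ACGTG, the core of the hypoxia response element and part of the E-box CACGTG, was found in 8 (22.2%) beside 18.5%. CCAAT, a general promoter element, was found in 16 (44.4%) beside 37.5%. A match is a description of the letters and not a bound site. The 150 bases before the start are shown for a train gene that has the GTTGCC letters and for a train gene that has neither GTTGCC nor ACGTG in these bases, both of which are described with their values further on. Capitals mark GTTGCC, which in *Ift27* starts 9 bases before the gene start, and *Ift43* has no capitals.
Ift27 (chr15:78174082-78174231, minus strand): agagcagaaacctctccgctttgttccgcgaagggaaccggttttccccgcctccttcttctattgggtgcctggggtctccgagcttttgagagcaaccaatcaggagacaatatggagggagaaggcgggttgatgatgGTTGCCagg
Ift43 (chr12:86082411-86082560, plus strand): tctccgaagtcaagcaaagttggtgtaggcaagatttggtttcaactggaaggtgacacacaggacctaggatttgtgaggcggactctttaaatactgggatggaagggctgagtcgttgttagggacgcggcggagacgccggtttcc

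The arrays differed in spread before any gene was considered. Over all genes, control arrays had standard deviations from 1.12 to 1.66 (log2) and anti-VEGF arrays from 1.99 to 2.08, and the median of all genes lay between 4.86 and 5.16 and between 4.51 and 4.73. On the deposited scale genes of high level tended to read higher in anti-VEGF tumours and genes of low level lower. The main counts and the fold changes of the genes are for this reason given on the deposited scale and after quantile normalisation, which gives all 8 arrays the same distribution. The values of single arrays are deposited values unless stated otherwise. Control array 3 stood apart, with the narrowest spread and correlations of 0.774 to 0.869 with the other arrays. Anti-VEGF arrays 2 and 3 were the most alike (r = 0.996). As for the label, the keratin genes *Krt8*, *Krt18* and *Krt19* had group means of 9.27 or more, while *Epcam*, another epithelial marker, read 4.31 ± 0.31 in controls and 3.82 ± 0.40 in anti-VEGF tumours (SD, n = 4).

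Markers of several other cell types differed between the groups on the deposited scale, with fewer calls after quantile normalisation. Their part in the results was not tested. Values are the range over arrays of a list's mean log2 level, first in control and then in anti-VEGF tumours. Calls are on the deposited scale unless stated otherwise, where 19.1% of all genes were higher and 46.6% lower. Pancreatic acinar genes (8 of 12 measured) lay between 10.65 and 11.95 and between 4.78 and 10.53, and all 8 were lower by limma. In anti-VEGF arrays 1 to 4 their mean was 10.53, 4.78, 5.52 and 7.88. Myeloid genes (7 of 9) lay between 6.49 and 7.82 and between 8.26 and 8.82, and 6 were higher. All 7 were in the highest tertile of all genes by mean level, where 51.3% were higher. Genes of proliferating cells (4 of 11) lay between 5.24 and 6.66 and between 6.78 and 7.44, and 3 were higher on the deposited scale and 0 after quantile normalisation, where 3 had an unadjusted p under 0.05. T and NK genes (5 of 8) lay between 4.19 and 4.73 and between 3.65 and 3.86, with 4 lower. By mean level 2 of the 5 were in the lowest tertile of all genes, where 90.3% were lower. The other 3 were in the middle tertile, where 45.0% were lower. The median fold change of the 5 was -0.81 on the deposited scale and 0.10 after quantile normalisation, where 4 were positive. Granulocyte genes (8 of 9) lay between 5.04 and 5.36 and between 5.32 and 5.97, with 4 higher and 2 lower. The lists of other ciliated cells bear most directly on the cilium genes. Markers of multiciliated cells (9 of 19) lay between 4.38 and 4.78 and between 3.81 and 4.06, with 6 lower on the deposited scale, and 0 after quantile normalisation, where 1 was higher and 1 lower at an unadjusted p under 0.05. Testis and photoreceptor genes (5 of 8) lay between 4.26 and 4.70 and between 3.74 and 4.10, with 3 lower. The remaining lists were epithelial (6 of 9, 7.46 to 8.25 and 8.18 to 8.52, 4 higher), endothelial (5 of 9, 5.11 to 5.76 and 5.16 to 5.93, 0 called, and 0 at an unadjusted p under 0.05), skeletal muscle (4 of 5, 5.22 to 5.43 and 4.83 to 5.08, 2 lower) and fibroblast, of which *Lum* alone was measured (4.16 to 5.58 and 4.82 to 6.34, higher with an adjusted p of 0.0404 from limma). The call of *Lum* was lost without control 1, 3 or 4 or anti-VEGF array 2, 3 or 4 (adjusted p from 0.0530 to 0.113), and the muscle calls fell to 1 without anti-VEGF array 2 or 3 and to 0 without array 4, where 2 had an unadjusted p under 0.05. After quantile normalisation limma called 6 acinar genes lower, 2 myeloid genes higher, 2 granulocyte genes higher and 1 lower, and 1 epithelial gene higher, and none in the other marker lists. The shares of all genes were then 7.40% higher and 4.41% lower.

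Most cilium and centrosome genes read higher in anti-VEGF tumours than in control tumours. Of the 42, 21 were higher and 2 lower at an adjusted p under 0.05 (limma, Benjamini-Hochberg over all genes). Among all genes measured, 19.1% were higher and 46.6% lower. After quantile normalisation 16 of the 42 were higher and 1 lower, beside 7.40% and 4.41% of all genes. With cyclic loess, another way of bringing the arrays to a common scale, 17 were higher and 1 lower, beside 11.3% and 9.49%. Of the genes, 13 were higher on all 3 scales, and the share of all genes higher on all 3 was not computed. In whole tumours, fewer cells of a type and less RNA per cell cannot be told apart.

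The median log2 fold change of the 42 genes was 0.48, with a range from -0.95 to 2.08, while the median of all genes was -0.44. After quantile normalisation the median was 0.39, with a range from -0.43 to 1.80, and that of all genes was -0.024. A positive fold change was found for 36 genes on the deposited scale and for 34 after quantile normalisation. Among all 11667 genes it was found for 4027 and 5540. The sign of 10 of the 42 genes turned between the scales. In 26 of the 42 genes every anti-VEGF tumour stood above every control tumour, beside 19.8% of all genes, and in 2 genes every anti-VEGF tumour stood below, beside 41.5%. After quantile normalisation the groups were separate in the upward direction in 21 genes, beside 13.6%, and in the downward direction in 2, beside 11.5%. A change of at least 2-fold that passed the test was found for 6 genes, all upwards, beside 9.43% of all genes.

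**Figure D1:**
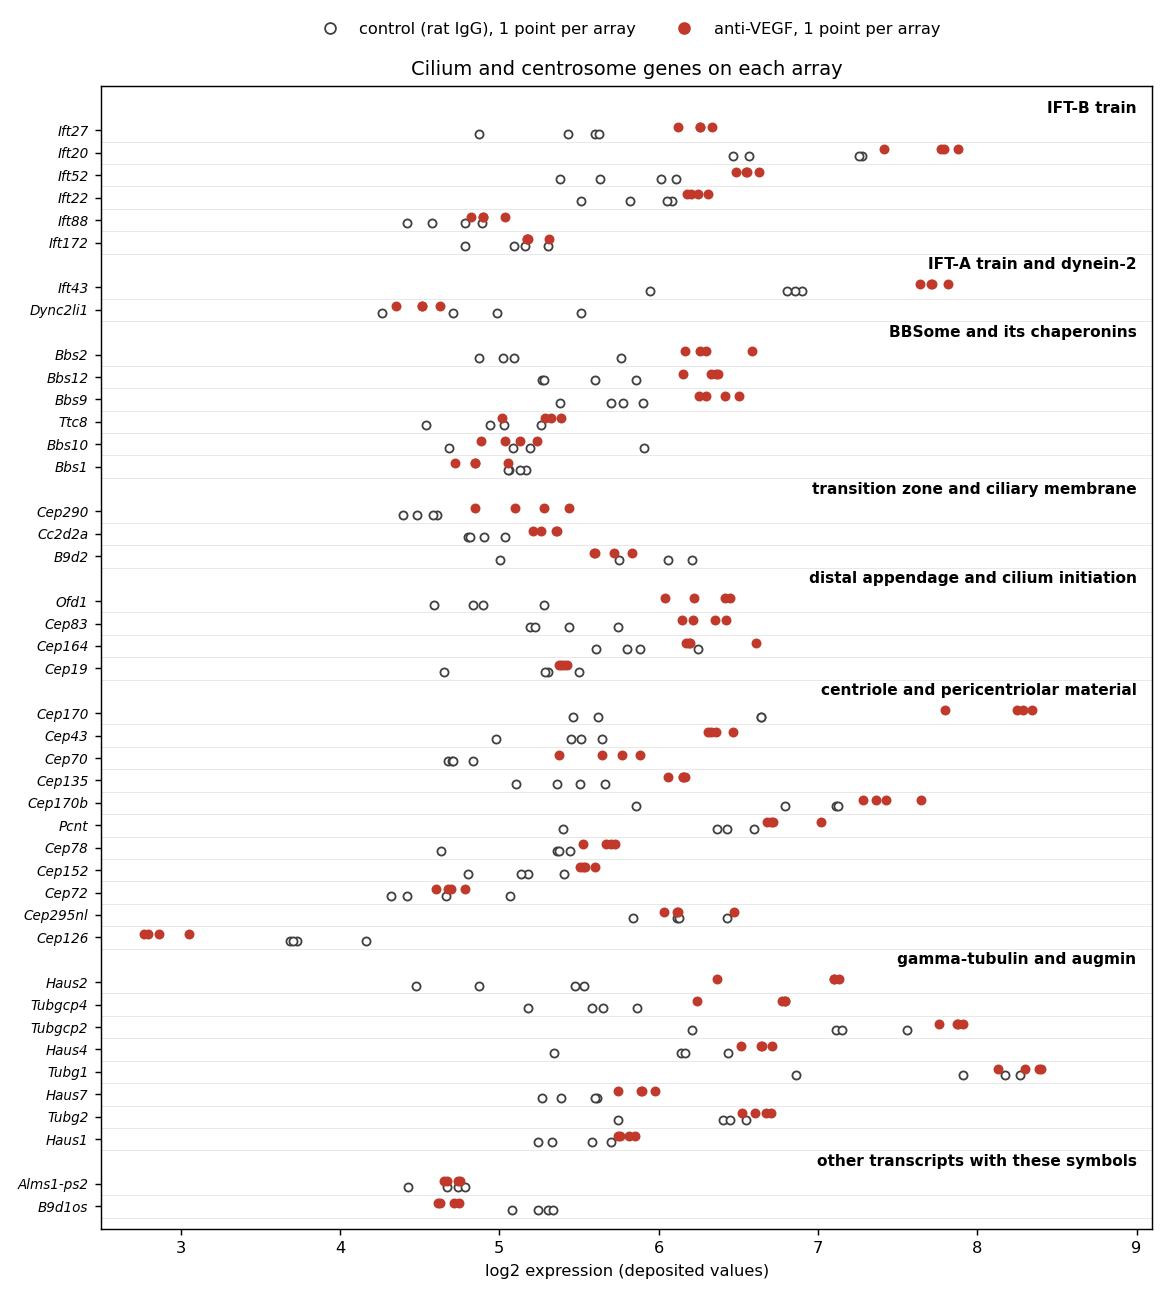
Log2 expression (deposited values) of the 42 genes on each of the 8 arrays, grouped by role, with 1 open circle per control tumour and 1 filled circle per anti-VEGF tumour. In *Cep170*, *Haus2* and *Ofd1* all 4 anti-VEGF tumours stand to the right of all 4 controls, in *Tubg1* the groups overlap, and in *Cep126* and *B9d1os* the anti-VEGF tumours stand to the left.

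The calls on the quantile scale rested on few arrays. When the arrays were normalised without control array 1, 2, 3 or 4, the number of higher genes was 4, 12, 18 and 17, and it was 10 without anti-VEGF array 1. Without anti-VEGF array 2, 3 or 4 it was 0, with 18 genes at an unadjusted p under 0.05 each time, and limma then called 1 of the 11667 genes higher and 0 lower. The median fold change of the 42 genes stayed between 0.34 and 0.45 in these 8 settings. On the deposited scale, leaving out an array in turn gave 17 to 24 higher genes and 2 or 3 lower genes.

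Level had to be taken into account, because the fold change rose with it. The genes were split into tertiles of their mean log2 level over all arrays, at 4.08 and 5.56. The highest tertile held 26 of the 42 genes, the middle 15 and the lowest 1. In the highest tertile 18 of 26 (69.2%) were higher and 0 lower, beside 51.3% and 4.55% of all genes of that tertile, and their median fold change was 0.75 beside 0.60. In the middle tertile 3 of 15 (20.0%) were higher and 1 lower, beside 6.04% and 45.0%, with a median of 0.21 beside -0.44. After quantile normalisation 10 of 26 (38.5%) were higher and 1 lower in the highest tertile, beside 13.4% and 8.28%, with a median of 0.31 beside 0.099. In the middle tertile 6 of 15 (40.0%) were then higher and 0 lower, beside 7.02% and 2.96%, with a median of 0.53 beside -0.051. The only gene of the lowest tertile was *Cep126*, which was lower on the deposited scale, as were 90.3% of all genes there, while 0.0514% were higher. It was not called after quantile normalisation, where 1.80% were higher and 2.01% lower.

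**Figure D2:**
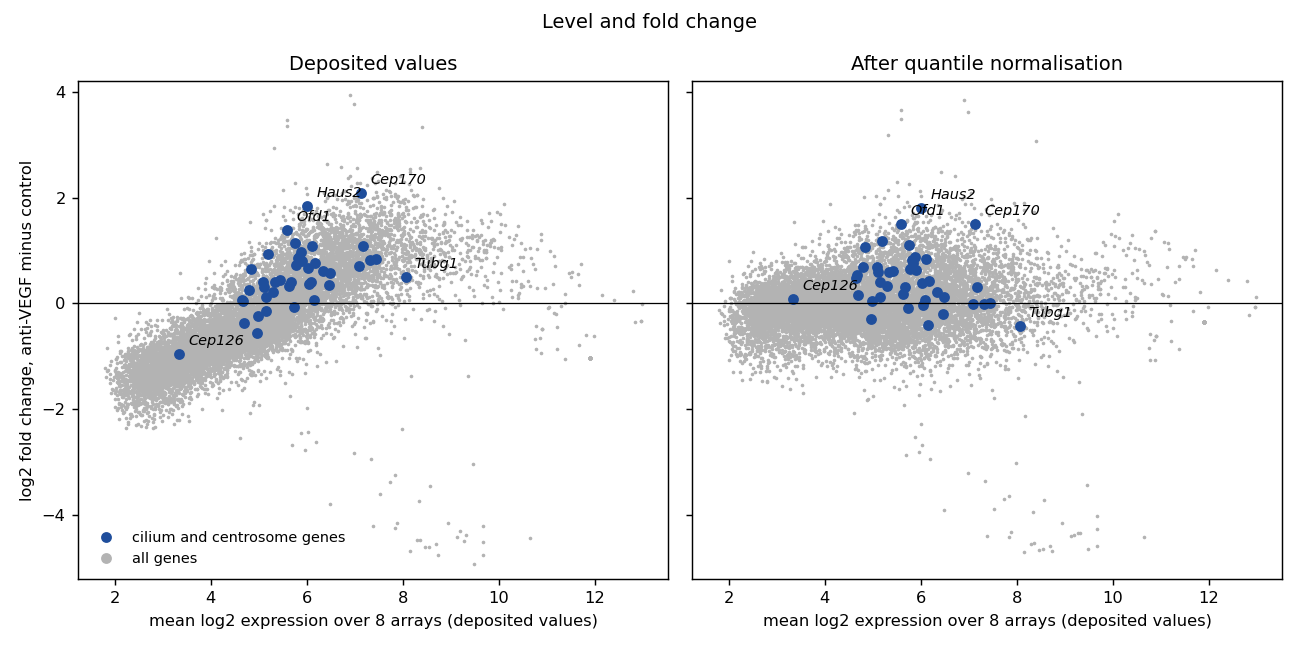
Log2 fold change (anti-VEGF minus control, y axis) against the mean log2 level over 8 arrays (x axis) for all 11667 genes (grey) and the 42 cilium and centrosome genes (blue), on the deposited scale at the left and after quantile normalisation at the right. The fold change climbs with level at the left and lies near 0 at the right, where *Haus2*, *Ofd1* and *Cep170* are the highest blue points and *Tubg1* lies below 0.

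The largest rises among the 42 were in genes of the mother centriole and of the spindle. *Cep170* encodes a protein of the subdistal appendages, which anchor microtubules to the mother centriole. With arrays given in the order of their numbers, here and for every gene, its log2 level was 5.62, 6.64, 5.46 and 6.64 in controls and 7.80, 8.35, 8.29 and 8.25 in anti-VEGF tumours. The controls fell into a lower pair and a higher pair, and all anti-VEGF tumours stood above them. The mean was 6.09 ± 0.64 in control and 8.17 ± 0.25 in anti-VEGF tumours (SD, n = 4), which is 4.22-fold higher. The log2 fold change was 2.08 (SE 0.29, adjusted p = 0.00102, limma) and after quantile normalisation 1.50 (SE 0.31, adjusted p = 0.0241).

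*Haus2* encodes a subunit of augmin, which brings the gamma-tubulin ring to existing spindle microtubules. Its levels were 4.87, 5.47, 4.48 and 5.53 in controls and 6.37, 7.10, 7.13 and 7.10 in anti-VEGF tumours. Anti-VEGF tumour 1 was the lowest of its group and still stood above every control. The log2 fold change was 1.84 (SE 0.27, adjusted p = 0.00109, limma), or 3.57-fold, and hardly moved after quantile normalisation, at 1.80 (SE 0.37, adjusted p = 0.0240). *Tubgcp4*, a subunit of the gamma-tubulin ring from which microtubules grow, had the same shape among the anti-VEGF tumours. It read 5.58, 5.86, 5.18 and 5.65 in controls and 6.24, 6.79, 6.77 and 6.79 in anti-VEGF tumours. The groups did not overlap, and the log2 fold change was 1.08 (SE 0.20, adjusted p = 0.00210, limma) and 0.84 (adjusted p = 0.0302) after quantile normalisation.

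The gamma-tubulin and augmin genes divided between the scales. Of 8 genes, 5 were higher and 0 lower on the deposited scale, with 0 lower at an unadjusted p under 0.05 too. All 8 lay in the highest tertile of level. Of all genes in that tertile 51.3% were higher and 4.55% lower, so the share of higher genes was near that of their level. After quantile normalisation 2 were higher, *Haus2* and *Tubgcp4*, and 1 was lower, beside 13.4% and 8.28% of all genes of that tertile. With any 1 anti-VEGF array left out, 3 of the 5 calls on the deposited scale were left. *Tubgcp2*, another ring subunit, rose by 0.85 on the deposited scale (adjusted p = 0.0154, limma) and its fold change was 0.013 after quantile normalisation (adjusted p = 0.956). *Haus4* and *Haus7*, further augmin subunits, had fold changes of 0.61 and 0.41 (adjusted p = 0.0372 and 0.0409) and lost the call with any anti-VEGF array left out, without control 1 (*Haus4*) or control 2 (*Haus7*), and after quantile normalisation (0.22 and 0.30, adjusted p = 0.462 and 0.202). *Haus1* did not pass on either scale (0.33, adjusted p = 0.0969, and 0.17, adjusted p = 0.724).

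Gamma-tubulin itself went the other way on the common scale. *Tubg1*, the main gamma-tubulin gene, read 7.91, 8.27, 6.86 and 8.18 in controls and 8.13, 8.30, 8.40 and 8.39 in anti-VEGF tumours. Control 3 was far below the others and the groups overlapped. The fold change was 0.50 (SE 0.28, adjusted p = 0.137, limma). After quantile normalisation the controls read 8.22, 8.39, 8.26 and 8.19 and the anti-VEGF tumours 7.75, 7.84, 7.90 and 7.87, so that every anti-VEGF tumour stood below every control. *Tubg1* then was lower by -0.43 (SE 0.12, adjusted p = 0.0459), and by -0.50 with cyclic loess (adjusted p = 0.0126). The call on the quantile scale was lost without control 1 or 2 and without any anti-VEGF array. *Tubg2*, its close paralog, had fold changes of 0.34 (adjusted p = 0.146), -0.20 after quantile normalisation (adjusted p = 0.263) and -0.23 with cyclic loess (adjusted p = 0.108). Probes of near-identical paralogs can share signal, and the probe sequences were not analysed here.

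Among the 11 other centriole and pericentriolar genes, 5 were higher and 1 lower, and after quantile normalisation 5 were higher and 0 lower, with 0 lower at an unadjusted p under 0.05. The shares of all genes were 19.1% higher and 46.6% lower, and 7.40% and 4.41% after quantile normalisation. Of the genes higher on the deposited scale, *Cep170*, *Cep43*, *Cep135* and *Cep170b* lay in the highest tertile of level, where 51.3% of all genes were higher. *Cep70* lay in the middle tertile, where 6.04% were higher. The median fold changes of the 11 genes were 0.58 and 0.59. *Cep70*, a centrosomal protein that binds gamma-tubulin, had controls close together, at 4.68, 4.70, 4.71 and 4.83, and read 5.37, 5.77, 5.89 and 5.64 in anti-VEGF tumours. All anti-VEGF tumours stood above all controls. Its log2 fold change was 0.94 (SE 0.17, adjusted p = 0.00168, limma), and 1.18 after quantile normalisation (SE 0.17, adjusted p = 0.0148), the smallest adjusted p of the 42 genes on that scale.

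*Cep43*, a centriole protein needed to start a cilium, read 5.45, 5.51, 4.98 and 5.65 in controls and 6.36, 6.33, 6.46 and 6.31 in anti-VEGF tumours. Its log2 fold change was 0.97 (adjusted p = 0.0020, limma) and after quantile normalisation 0.89 (adjusted p = 0.0254). *Cep135*, a scaffold protein of the centriole cartwheel, read 5.36, 5.67, 5.11 and 5.51 in controls and 6.06, 6.15, 6.17 and 6.16 in anti-VEGF tumours. Neither gene overlapped between groups, and in both control 3 was the lowest tumour. The fold change of *Cep135* was 0.72 (adjusted p = 0.00466, limma) and after quantile normalisation 0.65 (adjusted p = 0.0427).

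Other genes of the centriole group gave a call on 1 scale or on none. *Cep170b*, the paralog of *Cep170*, had a fold change of 0.71 (adjusted p = 0.0391, limma), which was lost without control 2 or any anti-VEGF array, and -0.015 after quantile normalisation (adjusted p = 0.963). *Cep152*, which brings the kinase Plk4 to the mother centriole, had 0.41 (adjusted p = 0.0519) and 0.59 after quantile normalisation (adjusted p = 0.0454). *Pcnt*, the pericentrin scaffold of the pericentriolar material, had 0.58 and 0.11 (adjusted p = 0.0634 and 0.750). *Cep78* had 0.45 and 0.62 (adjusted p = 0.0710 and 0.142), while *Cep72* had 0.072 and 0.49 (adjusted p = 0.743 and 0.216). *Cep295nl* had 0.057 and -0.42 (adjusted p = 0.786 and 0.317), so its sign turned between the scales without a call on either.

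*Cep126*, a microtubule-binding centrosome protein, was the gene of this group that fell on the deposited scale. It read 3.73, 3.68, 4.16 and 3.70 in controls and 3.05, 2.80, 2.77 and 2.87 in anti-VEGF tumours, without overlap. The log2 fold change was -0.95 (SE 0.17, adjusted p = 0.00185, limma). The value was 0.082 after quantile normalisation (adjusted p = 0.727) and 0.079 with cyclic loess (adjusted p = 0.680), so that neither the direction nor the call held.

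Distal appendages fasten the mother centriole to the membrane when a cilium starts. Of 4 genes of this step, 2 were higher on both scales and none was lower on either, with 0 lower at an unadjusted p under 0.05. Over all genes 19.1% were higher and 46.6% lower, and 7.40% and 4.41% after quantile normalisation. The higher genes, *Ofd1* and *Cep83*, lay in the highest tertile of level. In that tertile 51.3% of all genes were higher, and 13.4% after quantile normalisation. *Ofd1*, a protein of centriole ends and centriolar satellites that is mutated in oral-facial-digital syndrome, read 4.83, 4.90, 4.59 and 5.28 in controls and 6.04, 6.42, 6.45 and 6.22 in anti-VEGF tumours. The highest control lay well below the lowest anti-VEGF tumour. The mean was 4.90 ± 0.29 and 6.28 ± 0.19 (SD, n = 4), a 2.61-fold difference. *Ofd1* had a log2 fold change of 1.38 (SE 0.19), with the smallest adjusted p of the 42 genes on the deposited scale (0.000972, limma), and 1.49 (SE 0.24, adjusted p = 0.0174) after quantile normalisation. *Cep83*, which starts the assembly of distal appendages, read 5.19, 5.44, 5.23 and 5.74 in controls and 6.15, 6.42, 6.35 and 6.22 in anti-VEGF tumours. The groups of *Cep83* were separate, with fold changes of 0.88 (adjusted p = 0.00255, limma) and 0.76 (adjusted p = 0.0411). *Cep164*, a distal appendage protein that *Cep83* recruits, did not pass (0.41, adjusted p = 0.0794, and 0.060, adjusted p = 0.833), nor did the centriole gene *Cep19* (0.21, adjusted p = 0.357, and 0.32, adjusted p = 0.379).

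The transition zone was measured by 3 genes, of which 2 were higher on both scales. Of all genes 19.1% were higher on the deposited scale and 7.40% after quantile normalisation. *Cep290* forms links between the microtubules and the membrane of the transition zone, and its loss causes Joubert syndrome and blindness in people. It read 4.39, 4.61, 4.59 and 4.48 in controls and 4.85, 5.44, 5.28 and 5.10 in anti-VEGF tumours. All anti-VEGF tumours were above all controls, and anti-VEGF tumour 1 was the nearest to them. The log2 fold change was 0.65 (SE 0.18, adjusted p = 0.00895, limma) and after quantile normalisation 1.06 (SE 0.19, adjusted p = 0.0188). *Cc2d2a*, a transition zone protein of the same disease group, read 4.80, 4.81, 4.91 and 5.04 in controls and 5.21, 5.35, 5.36 and 5.26 in anti-VEGF tumours. Its groups did not overlap but lay close together. The fold change was 0.41 (SE 0.15, adjusted p = 0.0331, limma) and 0.68 after quantile normalisation (adjusted p = 0.0318). On the deposited scale the call was lost without control 2 (adjusted p = 0.0652) or anti-VEGF array 2, 3 or 4 (adjusted p = 0.0998, 0.0971 and 0.0817). *B9d2*, a further transition zone gene, had fold changes of -0.071 (adjusted p = 0.806) and -0.090 (adjusted p = 0.858).

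The transport trains were measured by 6 genes of the IFT-B train, which moves outwards, and by *Ift43* and *Dync2li1* of the return movement. Of the IFT-B genes 3 were higher and 0 lower, beside 19.1% and 46.6% of all genes. After quantile normalisation 2 were higher and 0 lower, beside 7.40% and 4.41%. At an unadjusted p under 0.05, 0 were lower on either scale. The higher genes on the deposited scale, *Ift27*, *Ift20* and *Ift52*, lay in the highest tertile of level, where 51.3% of all genes were higher. *Ift27*, a small GTPase of the train that lets the BBSome leave the cilium and whose promoter bases are shown, read 5.43, 5.60, 4.87 and 5.63 in controls and 6.12, 6.26, 6.34 and 6.26 in anti-VEGF tumours. Control 3 was the lowest, and the groups did not overlap. The fold change was 0.86 (SE 0.20, adjusted p = 0.00426, limma) and after quantile normalisation 0.82 (SE 0.22, adjusted p = 0.0476).

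*Ift43*, a subunit of the IFT-A train and the other gene whose promoter bases are shown, read 6.90, 6.86, 5.95 and 6.81 in controls and 7.72, 7.64, 7.71 and 7.82 in anti-VEGF tumours. The anti-VEGF tumours were close together and above all controls, and control 3 lay far below the other controls. The fold change was 1.09 (SE 0.22, adjusted p = 0.00278, limma), but 0.32 after quantile normalisation (SE 0.12, adjusted p = 0.127) and 0.26 with cyclic loess (adjusted p = 0.137). *Ift52*, a core scaffold of the IFT-B train, likewise passed on the deposited scale with 0.77 (adjusted p = 0.00621) and had 0.43 after quantile normalisation (adjusted p = 0.0843). *Ift20*, which also works at the Golgi apparatus, had 0.82 (adjusted p = 0.0104) and -0.006 (adjusted p = 0.988). *Ift88*, the subunit whose loss abolishes cilia in mice, had 0.25 on the deposited scale (adjusted p = 0.200) and 0.69 after quantile normalisation (adjusted p = 0.0332). *Ift22* (0.37 and -0.028) and *Ift172* (0.12 and 0.40) passed on neither scale, and *Dync2li1*, a light intermediate chain of dynein-2, had -0.37 (adjusted p = 0.202) and 0.16 (adjusted p = 0.779).

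The BBSome and the chaperonin-like proteins that assemble it, which are mutated in Bardet-Biedl syndrome, were measured by 6 genes. On the deposited scale 3 were higher and 0 lower, beside 19.1% and 46.6% of all genes. After quantile normalisation 2 were higher and 0 lower, beside 7.40% and 4.41%. None was lower at an unadjusted p under 0.05 on either scale. The higher genes on the deposited scale, *Bbs2*, *Bbs12* and *Bbs9*, lay in the highest tertile of level. In that tertile 51.3% of all genes were higher, and 13.4% after quantile normalisation. *Bbs2*, a core BBSome subunit, read 5.09, 4.88, 5.03 and 5.76 in controls and 6.16, 6.26, 6.59 and 6.30 in anti-VEGF tumours. Control 4 was the highest control and lay below all anti-VEGF tumours. The fold change was 1.14 (SE 0.22, adjusted p = 0.00208, limma) and 1.11 after quantile normalisation (SE 0.24, adjusted p = 0.0273). *Bbs12*, a chaperonin-like assembly factor, read 5.60, 5.27, 5.28 and 5.86 in controls and 6.36, 6.37, 6.33 and 6.15 in anti-VEGF tumours. Its groups were separate, with fold changes of 0.80 (adjusted p = 0.00413, limma) and 0.63 (adjusted p = 0.0424). *Bbs9*, another core subunit, passed on the deposited scale with 0.68 (adjusted p = 0.00644) and had 0.39 after quantile normalisation (adjusted p = 0.0573). The remaining BBSome genes did not pass on either scale. *Ttc8*, also a core subunit, had 0.31 and 0.59, *Bbs1* had -0.23 and 0.055, and the assembly factor *Bbs10* had -0.14 and 0.11.

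The symbol pattern also took in a pair of transcripts that code for no protein of the cilium. *B9d1os*, an RNA from the strand opposite the transition zone gene *B9d1*, read 5.08, 5.30, 5.24 and 5.34 in controls and 4.72, 4.62, 4.63 and 4.75 in anti-VEGF tumours. The groups did not overlap, and the fold change was -0.56 (SE 0.15, adjusted p = 0.00830, limma), and -0.29 after quantile normalisation (adjusted p = 0.285). *Alms1-ps2*, a pseudogene of the centriole gene *Alms1*, had 0.046 (adjusted p = 0.796) and 0.53 after quantile normalisation (adjusted p = 0.0488).

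**Figure D3:**
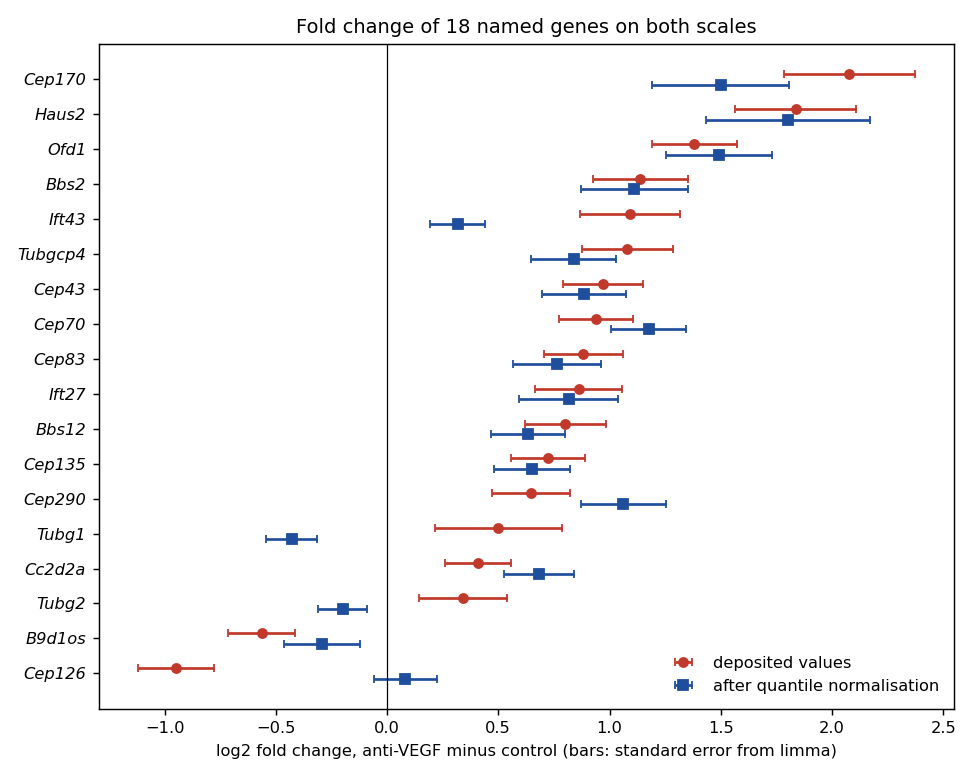
Log2 fold change (anti-VEGF minus control, x axis) of 18 genes, with red circles for the deposited scale, blue squares for the quantile scale and bars for the standard error from limma. *Haus2*, *Ofd1* and *Bbs2* have nearly the same value on both scales, *Ift43* falls from 1.09 to 0.32, and *Tubg1*, *Tubg2* and *Cep126* change sign.

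The spread among the genes' own replicates differed between the groups as it did over the whole array. In 39 of the 42 genes the standard deviation was smaller in anti-VEGF than in control tumours, beside 90.0% of all genes. The median standard deviation of the 42 was 0.289 in control and 0.108 in anti-VEGF tumours, beside 0.401 and 0.145 over all genes. Control 3 was the lowest control in 24 of the 42 genes, beside 42.2% of all genes, and anti-VEGF tumour 1 the lowest of its group in 22. For anti-VEGF tumour 1 the share of all genes was not computed, so whether its count is particular to these genes was not tested. The 42 genes had a median level of 5.44, 5.46, 5.15 and 5.61 in controls and of 6.09, 6.17, 6.18 and 6.15 in anti-VEGF tumours. The groups were separate in this summary, but not in these genes alone. For all genes of the highest tertile of level the array medians were 5.73 to 6.58 in controls and 6.90 to 6.95 in anti-VEGF tumours. For all genes they were separate in the other direction, at 4.86 to 5.16 and 4.51 to 4.73.

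Other genes of the cilium and centrosome, with symbols outside the pattern, were taken from lists written for this purpose. Of 79 measured genes 24 were higher (30.4%) and 28 lower (35.4%), beside 19.1% and 46.6% of all genes. After quantile normalisation 9 were higher (11.4%) and 0 lower by limma, beside 7.40% and 4.41%. Over the 79 pooled, the share of higher genes was near that of all genes. The 79 include 29 genes of the motile axoneme and of RFX and FOXJ1 factors, which gave 0 of the 9. The 24 fell to 15 and 14 without anti-VEGF array 2 and 4. The counts of the lists followed the level of their genes in part. Of the 79, 34 lay in the highest tertile of level, with 21 higher and 0 lower, 32 in the middle tertile, with 3 higher and 15 lower, and 13 in the lowest, all lower. Among all genes, 51.3% were higher in the highest tertile, 45.0% lower in the middle and 90.3% lower in the lowest. In the list of motors, traffic and gating 10 of 14 were higher and 0 lower, with a median fold change of 0.62, and after quantile normalisation 5 were higher and the median was 0.45. Of its 11 genes in the highest tertile 9 were higher. Its leading genes belong to the motors of the trains. *Kifap3*, the non-motor subunit of kinesin-2, had a mean of 5.33 ± 0.28 in control and 6.90 ± 0.24 in anti-VEGF tumours (SD, n = 4), and fold changes of 1.57 (adjusted p = 0.000860, limma) and 1.40 (adjusted p = 0.0174). *Kif3b*, a motor subunit of the same kinesin, had 1.25 (adjusted p = 0.00195) and 0.82 (adjusted p = 0.0416). *Wdr60*, an intermediate chain of dynein-2, had 1.22 (adjusted p = 0.0020) and 0.88 (adjusted p = 0.0462).

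In the list of further centriole genes 5 of 14 were higher and 1 lower, with 3 higher when anti-VEGF array 2, 3 or 4 was left out, and after quantile normalisation 3 were higher and 0 lower, with 0 lower at an unadjusted p under 0.05. *2700049A03Rik*, the mouse gene for Talpid3, had fold changes of 0.76 (adjusted p = 0.00308, limma) and 0.97 (adjusted p = 0.0184). *Ccdc14*, a centriolar satellite protein, had 0.89 (adjusted p = 0.00406) and 1.06 (adjusted p = 0.0298). *Cetn1*, the centrin of testis and photoreceptors, was lower by -1.40 on the deposited scale (adjusted p = 0.00121), with -0.31 after quantile normalisation (adjusted p = 0.544). A list of 12 genes was written for the control of cilium building and removal. It also holds genes of ciliary membrane proteins, such as *Pkhd1* and *Sstr3*. Of the 12, 5 were higher and 3 lower, and 1 was higher after quantile normalisation. The shares of all genes were 19.1% and 46.6%, and 7.40% higher after quantile normalisation. All 5 higher genes were among 8 of the highest tertile of level, where 51.3% of all genes were higher. The 5 higher calls fell to 3 without control 2 or 3 or anti-VEGF array 1, 2 or 3, and to 2 without anti-VEGF array 4. The gene higher on both scales was *Septin2*, part of the diffusion barrier at the ciliary base, with 1.52 (adjusted p = 0.00190) and 0.75 (adjusted p = 0.0413). *Hdac6*, the tubulin deacetylase that helps to take cilia down, had 0.97 (adjusted p = 0.00286) and 0.35 (adjusted p = 0.0814). *Pkhd1*, which encodes the ciliary membrane protein fibrocystin, had -1.07 (adjusted p = 0.00201) and -0.16 (adjusted p = 0.410).

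The Hedgehog pathway, the best-known signal of the primary cilium, had no common direction on the deposited scale. Of 10 genes 3 were higher and 3 lower, with a median of -0.19, beside 19.1% and 46.6% of all genes. The 3 higher were among 6 genes of the highest tertile of level, where 51.3% of all genes were higher. The 3 lower were among 4 of the middle tertile, where 45.0% were lower. After quantile normalisation 0 were called by limma, with 1 higher and 4 lower at an unadjusted p under 0.05. The median was then -0.34, and 4 of the 10 had a positive fold change on each of these scales. With cyclic loess 4 were lower and 0 higher, beside 9.49% and 11.3% of all genes. These were *Gli1* (-0.54), *Ihh* (-0.68), *Shh* (-0.35) and *Gas1* (-0.63), with adjusted p of 0.0254, 0.0369, 0.0352 and 0.0161 (limma). *Gli1*, the transcription factor and target gene that reports pathway activity, had a mean of 5.48 ± 0.35 in control and 4.73 ± 0.12 in anti-VEGF tumours (SD, n = 4), and fold changes of -0.76 (adjusted p = 0.00796, limma) and -0.67 after quantile normalisation (adjusted p = 0.0850). *Spop*, which marks Gli proteins for degradation, had 1.27 (adjusted p = 0.00768) and 0.40 (adjusted p = 0.166). *Kctd5*, a cullin adaptor also on the list, had 0.93 (adjusted p = 0.00762) and 0.34 (adjusted p = 0.219). It is 1 of the 3 higher genes, and its part in Hedgehog signalling was not checked.

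Genes of motile cilia, which belong to cells with beating cilia and not to the primary cilium, lay mostly in the lowest and middle tertiles of level. Of 29 genes for the motile axoneme and for RFX and FOXJ1 factors 21 were lower and 1 higher, with a median of -0.68, beside 46.6% lower among all genes. The 29 include all 9 markers of multiciliated cells given above, so these lists are not independent. The higher gene was *Rfx2* (0.42, adjusted p = 0.0416, limma), of the RFX factors described above as activators of cilium genes. All 10 in the lowest tertile of level and 11 of 15 in the middle tertile were lower, beside 90.3% and 45.0% of all genes of these tertiles, and 0 of 4 in the highest. After quantile normalisation 0 were called by limma, with 1 higher and 1 lower at an unadjusted p under 0.05, and the median was -0.075. *Spag16* of the central pair had -1.22 (adjusted p = 0.00106, limma) and -0.14 (adjusted p = 0.517). *Dnah3*, a dynein heavy chain of the axoneme, had -0.998 (adjusted p = 0.00113) and 0.004 (adjusted p = 0.987). *Armc4*, which docks the outer dynein arms, had -1.08 (adjusted p = 0.00173) and -0.021 (adjusted p = 0.930).

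**Figure D4:**
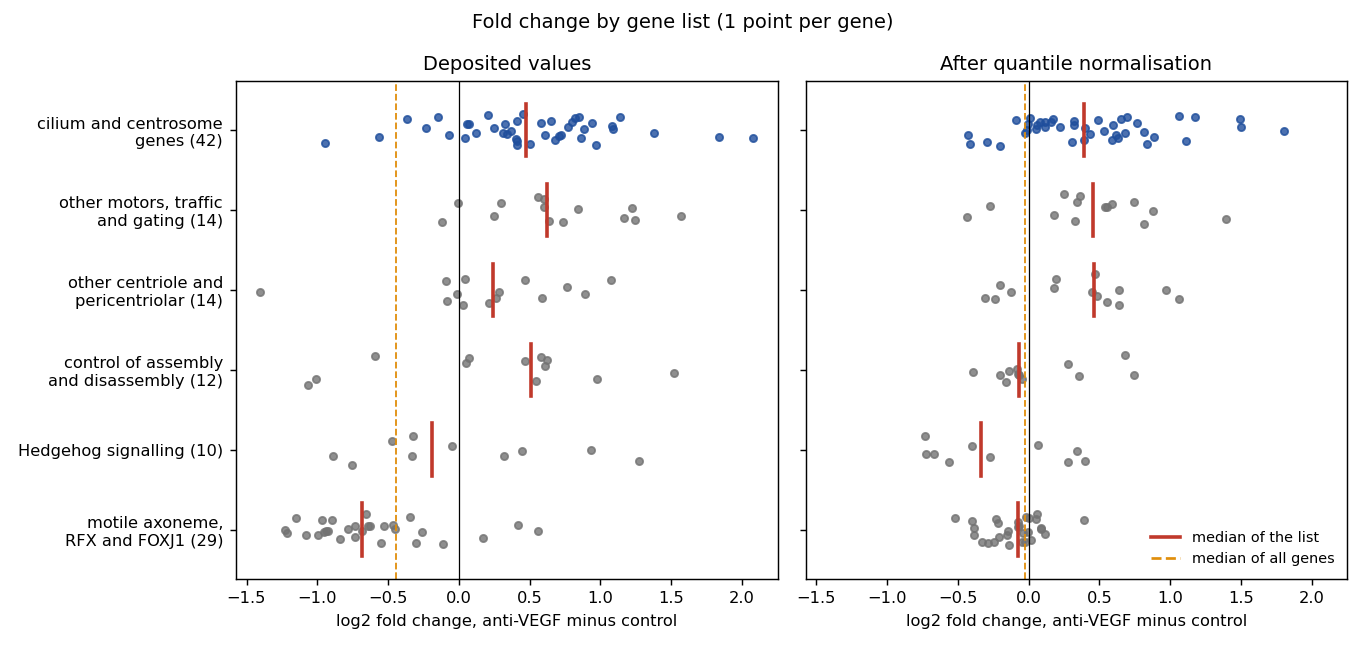
Log2 fold change (anti-VEGF minus control, x axis) of each gene of the 42 cilium and centrosome genes and of 5 further lists, on the deposited scale at the left and after quantile normalisation at the right, with red bars for the median of each list and a dashed line for the median of all genes. The motile axoneme list has a median of -0.68 at the left and -0.075 at the right, whereas the 42 genes have 0.48 and 0.39.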

How the data were processed

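Total RNA of 8 tumours was hybridised to Affymetrix mouse transcriptome arrays, 1 for each tumour. The authors deposited log2 values after robust multi-array average normalisation, with RMA and Transcriptome Analysis Console named in the submitters' processing notes. The table held 13266 probe sets. Symbols came from the platform annotation and were brought up to date with RefSeq, and 11743 probe sets had 1 symbol, 800 several and 723 none. Those with 1 symbol were kept, and where a gene had more than 1 of them the brightest stood for it, which gave 11667 genes. The choice of the deposited probe sets is not given in the sources used here.

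Groups were taken from the treatment label. Genes were tested with limma 3.58.1 in R 4.3.3 (lmFit and eBayes, trend and robust off, treatment as the only term), with Benjamini-Hochberg adjustment over all 11667 genes and a threshold of 0.05. No filter on dim genes was applied. The 42 genes, their roles, the other gene lists and the alternatives were chosen with earlier results of these data known, and no p was adjusted over a list alone. The named genes were those with the largest rise or fall past the threshold in each role, those called in the same direction on the deposited and quantile scales, the gamma-tubulin paralogs, the transcripts outside cilium and centrosome, and in each further list the 3 genes at most with the smallest p. Other genes of the 42 are given more briefly so that every member is accounted for, and those singled out were chosen after their values were seen.

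The alternatives were quantile normalisation, cyclic loess, median centring, leaving out the lowest tertile, a replicate block, averaged probe sets, each array left out, eBayes with trend and robust, array weights and a 2-fold minimum. Quantile normalisation with an array left out or with the replicate block was added after seeing the data. Arrays give no read depth, and their number limits the precision. The limma script was tested on simulated data. Promoters were searched with Python 3.11.15, and figures were drawn with matplotlib 3.10.9.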

Additional observations from a re-analysis of the deposited data

Results flagged for a closer look

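In 5 of the 18 named genes a single array stood far from the rest of its group, by a gap that exceeded Dixon's critical value for 4 samples. Control 3 read 5.95 in *Ift43*, below the other controls, with a gap of 0.899 of the group's range. The same array read 4.16 in *Cep126*, above the other controls, with a gap of 0.906 of the range. It was also the control array of narrowest spread. Anti-VEGF tumour 1 was the low value of its group in *Haus2* at 6.37 (0.959 of the range), in *Tubgcp4* at 6.24 (0.964) and in *Cep135* at 6.06 (0.847). This tumour also had the highest mean level of pancreatic acinar genes in its group (10.53, beside 4.78, 5.52 and 7.88 in the others). Whether the acinar level bears on these genes was not tested. Chance alone marks about 5% of groups of independent values, and the 36 groups tested here share arrays. All 5 genes kept their direction and their call on the deposited scale with each array left out in turn.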

How the results depend on the processing

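The scale of the arrays moved the results most. Median centring, which raises every fold change by 0.39, gave 35 higher and 1 lower of the 42 genes, a median fold change of 0.87 for them, and 16 lower among the 79 other cilium and centrosome genes. Quantile normalisation gave 1 lower of the 42, and 9 higher and 0 lower of the 79. Cyclic loess gave 1 lower of the 42, and 11 higher and 6 lower of the 79. Over all genes the main counts were 2232 higher and 5437 lower, beside 863 and 515 with quantile normalisation, 1322 and 1107 with cyclic loess and 3665 and 2979 with median centring. Leaving out the lowest tertile gave 1 lower of the 42, 15 lower of the 79 and 1870 lower of all genes. A 2-fold minimum gave 6 higher and 0 lower of the 42, 7 and 7 of the 79, and 1100 and 2511 of all genes.

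With an array left out on the deposited scale, the 42 genes gave 17 to 24 higher and 2 to 3 lower with a median of 0.38 to 0.58, and the 79 gave 14 to 26 higher and 23 to 31 lower. With quantile normalisation and an array left out, the ranges were 0 to 18 and 0 to 1 with a median of 0.34 to 0.45, and 0 to 13 and 0 to 2. The fold changes of 3 named genes turned sign. *Cep126* was -1.01 to -0.84 on the deposited scale with an array left out, 0.082 with quantile normalisation, 0.079 with cyclic loess, and -0.024 to 0.156 with quantile normalisation and an array left out, where it was below 0 without control 1 only. In the same order *Tubg1* was 0.19 to 0.66, -0.43, -0.50 and -0.45 to -0.38. *Tubg2* was 0.16 to 0.43, -0.20, -0.23 and -0.23 to -0.17. The cause of these changes was not tested.

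Replicate numbers did not count as pairs, since the deviations of arrays of the same number correlated at 0.19, 0.126, -0.0367 and 0.163, and only numbers 1 and 4 matched best with their own. A replicate block gave 19 higher and 2 lower of the 42, and 20 and 28 of the 79, and of the 18 named genes *Cc2d2a* lost its call (adjusted p = 0.0605, limma). With quantile normalisation and the replicate block the counts were 7 and 0 of the 42 and 2 and 0 of the 79, and *Cep126*, *Tubg1* and *Tubg2* were 0.082, -0.43 and -0.20. Robust and trended eBayes, array weights and averaged probe sets changed no count of the 42 higher or the 79 by over 1.5 times and no call of a named gene. For the 42 genes averaging could not move a value, since each had 1 probe set.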
